A study of Mus musculus with 6 samples.

Results

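Zfp36, Zfp36l1 and Zfp36l2 are the 3 liver-expressed genes of the tristetraprolin family, and their mRNA was measured in livers of high-fat diet (HFD)-fed mice that had received vehicle or esculetin, a coumarin. The 3 members were chosen by name from the 55357 genes of the count table, and they were chosen with the measured difference between esculetin and vehicle in view, because Zfp36l2 stood among the clearer rises. Their differences between the groups are therefore given below as a description, with standard errors but with no test. Each of the 3 rows matched 1 Ensembl identifier in the GENCODE annotation of GRCm39, and each passed edgeR's filter on low counts, as did 14433 genes in all.

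The mice were male C57BL/6J animals aged 8 to 9 weeks. Both groups were gavaged for 7 days, ate a control diet (10% kcal as fat) for 4 of those days and then the HFD (60% kcal as fat) for the other 3, so there was no group without the HFD among these libraries. The vehicle was 2.5% Tween-80. The dose of esculetin is given as 180 mg/kg/d in the names of the samples and as 90 mg/kg/d in their treatment field, and the group is called esculetin here without a dose. Each group held 3 libraries of whole liver, and each library pooled the livers of a pair of mice.

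The family binds AU-rich elements in the 3′ untranslated region (UTR) of short-lived mRNAs through a pair of CCCH zinc fingers and recruits the CCR4-NOT complex, which shortens the poly(A) tail and starts decay of the message. Tristetraprolin, the product of Zfp36, is best known for destabilising Tnf mRNA and is itself induced quickly by growth factors, insulin, glucocorticoids and inflammatory signals. Zfp36l1 and Zfp36l2 act in lymphocyte and haematopoietic development, and Zfp36l1 has been linked in hepatocytes to the mRNA of Cyp7a1, the rate-limiting enzyme of bile acid synthesis. The members also hold AU-rich elements in their own 3′ UTRs.

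All 3 genes lie on the minus strand and have 2 exons. Zfp36 (ENSMUSG00000044786) lies at chr7:28076209-28079710, Zfp36l1 (ENSMUSG00000021127) at chr12:80154528-80160006 and Zfp36l2 (ENSMUSG00000045817) at chr17:84491132-84495382 in GRCm39. Their 3′ UTRs are 774, 1835 and 2049 bases long. The preferred binding site of the family is the nonamer TTATTTATT (written as DNA), and the shorter heptamer TATTTAT lies inside it. Each of the 3 members' own 3′ UTRs held 1 nonamer and 3 heptamers. Of 20721 protein-coding genes with an annotated 3′ UTR, 8.36% held at least 1 nonamer on the mRNA strand and 4.56% held at least 3 heptamers. The windows below are printed because they show the element in the family's own messages, each in the 3′ UTR in the mRNA sense from 5′ to 3′, with the nonamer in capitals. They lie at chr7:28076376-28076404, chr12:80154941-80154969 and chr17:84492342-84492370, all on the minus strand, and their nonamers begin at bases 589, 1404 and 821 of the 3′ UTR.
Zfp36: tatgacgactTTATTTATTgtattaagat
Zfp36l1: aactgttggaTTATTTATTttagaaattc
Zfp36l2: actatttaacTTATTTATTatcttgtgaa

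Outside the 9 letters of the site the windows of the members differ, and each site stands alone. Known targets carry denser clusters, and 3 are printed for comparison because their mRNAs are described below. The Tnf window (chr17:35418659-35418688) and the Fgf21 window (chr7:45263361-45263389) hold overlapping nonamers. Dusp1 has a pair of separate sites, of which the first (chr17:26725133-26725161) is shown. These windows too are on the minus strand. The 3′ UTR of Tnf held 5 nonamers in 764 bases, that of Fgf21 held 3 in 143 bases and that of Dusp1 held 2 in 690 bases. No nonamer was present in the annotated 3′ UTRs of Il6, Tfrc and Cyp7a1, which held 1, 2 and 3 heptamers.
Tnf: acttaTTATTTATTATTTATTTATTattta
Fgf21: tatttatcTTATTTATTTATTttagtttt
Dusp1: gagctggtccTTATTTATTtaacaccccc

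The libraries held between 27957713 and 34920922 counts, with all 3 esculetin libraries above all 3 vehicle libraries. The hepatocyte markers, which include Alb and Apoa1, summed to between 117287 and 122939 CPM (read counts relative to the TMM-adjusted size of the library) with vehicle and to between 113966 and 123858 CPM with esculetin, and none of the 12 passed the test between groups. Endothelial markers summed to 280 to 328 CPM with vehicle and 293 to 329 CPM with esculetin, stellate cell and fibroblast markers to 452 to 529 and 403 to 543 CPM, and cholangiocyte markers to 39.7 to 80.8 and 30.7 to 45.9 CPM, in overlapping ranges. Neutrophil and monocyte markers summed to 5.42 to 9.82 CPM over all libraries, with Ly6g at 0 counts throughout, and those of fat and pancreas to 26.7 to 36.9 CPM, with 6 of 11 at 0 counts throughout. At p under 0.05, 6.53% of all genes tested were higher with esculetin and 5.32% lower. Beside this, 1 of 11 stellate markers (Des) and 1 of 5 neutrophil and monocyte markers (S100a9) were higher. So was 1 of 3 fat and pancreas markers tested (Cfd), and 1 of 5 cholangiocyte markers (Spp1) was lower. Of 5 erythroid markers tested, 1 (Hba-a2, whose reads may be shared with its paralog) was higher and 1 (Alas2) lower. P-values below measure the spread between libraries that each pooled a pair of mice.

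Zfp36l2 was higher in every esculetin library than in any vehicle library. Its level was 25.4, 22.8 and 25.8 CPM in the vehicle libraries and 37.3, 38.3 and 36.8 CPM in the esculetin libraries. The groups did not overlap, and the spread within each was small, at a coefficient of variation of 6.67% with vehicle and 1.98% with esculetin. The means were 24.7 ± 1.64 CPM (SD, n = 3) and 37.5 ± 0.740 CPM, a log2 fold change of 0.60 (SE 0.083) or 1.52-fold. Among the 14433 genes tested, 96.9% had a lower log2 fold change. Between these groups 9.2% of all genes tested were higher without overlap, and 1.37% were higher at the thresholds of the study (p under 0.05, taken here as unadjusted, and a fold change over 1.5); nothing is read from Zfp36l2 against these shares because it was selected on this contrast. The value lay close to the fold threshold: under the alternatives tried it ranged from a log2 fold change of 0.55 without vehicle replicate 2 to 0.64 without vehicle replicate 3. In bulk liver, more cells that express a gene and more mRNA per cell cannot be told apart. The lymphocyte markers summed to between 25.2 and 27.3 CPM with vehicle and between 20.9 and 28.1 CPM with esculetin, overlapping between groups. Of 14 tested, 1 was higher and 1 lower at p under 0.05, beside 6.53% and 5.32% of all genes tested.

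Zfp36, the founding member, differed between the groups by less than its own spread. Its level was 52.8, 69.1 and 58.9 CPM with vehicle and 105, 67.1 and 55.1 CPM with esculetin. The groups overlapped, and a single library, esculetin replicate 1, stood above the other 5. The means were 60.3 ± 8.19 and 75.9 ± 26.3 CPM, and the log2 fold change was 0.33 (SE 0.21). Without esculetin replicate 1 it was 0.02. In that library the neutrophil and monocyte markers summed to 9.82 CPM, against 5.42 to 7.88 CPM in the other 5, with Ly6g at 0 in all, and the erythroid markers summed to 178 CPM against 114 to 155 CPM. The hepatocyte (123858 CPM), lymphocyte (28.1 CPM) and fat and pancreas (36.9 CPM) sums were also highest in that library. The stellate cell and fibroblast sum (403 CPM) was lowest there. Whether these marker levels have a part in the Zfp36 value was not tested.

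Zfp36l1 showed the smallest difference of the 3 with all libraries, though not without esculetin replicate 1, where its log2 fold change was 0.26 and that of Zfp36 was 0.02. Its level was 92.5, 91.2 and 86.6 CPM with vehicle and 90.9, 112 and 104 CPM with esculetin. Esculetin replicate 1 lay within the vehicle range and the other two esculetin libraries lay above it. The means were 90.1 ± 3.08 and 102 ± 10.6 CPM, with a log2 fold change of 0.18 (SE 0.089). The 3 members thus had positive log2 fold changes, and the esculetin library that was highest for Zfp36 was the lowest of its group for Zfp36l1.

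**Figure D1:**
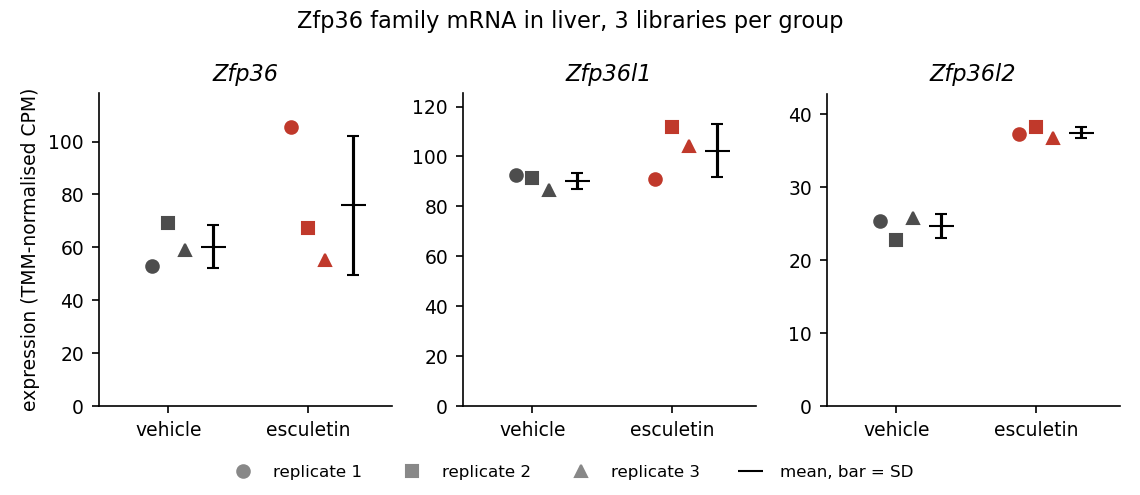
TMM-normalised CPM (y axis, linear from 0, a separate scale for each gene) of the 3 members in each vehicle and esculetin library, with the mean and SD of 3 libraries beside the points. Only Zfp36l2 has groups that do not overlap, with vehicle between 22.8 and 25.8 CPM and esculetin between 36.8 and 38.3 CPM, and the high Zfp36 point at 105 CPM is esculetin replicate 1.

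Genes that could share reads with the members were also counted. Zfp36l3, the X-linked family member that is known from placenta, had 1 count over all 6 libraries. The antisense gene Gm44710 shares 125 exonic bases with Zfp36 and had 10 counts in all, and Gm36279 shares 106 with Zfp36l2 and had 3 counts in all. The strand setting of the counting and its rule for reads that match several loci are not given in the sources used here, so how shared reads were assigned was not tested. The longest stretch identical between the transcripts of the members was 32 bases, between Zfp36l1 and Zfp36l2, where the reads had 150 bases, and other loci were not searched.

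Levels of different genes can be set side by side only per length, and Zfp36l1 mRNA was the most abundant of the family on that scale. With vehicle it stood at 28.1 ± 0.959 CPM per kilobase (kb) of exon, Zfp36 at 17.2 ± 2.34 and Zfp36l2 at 6.55 ± 0.437 (SD, n = 3), and no library of one gene overlapped those of the next. With esculetin Zfp36l1 stood at 31.9 ± 3.302, Zfp36 at 21.7 ± 7.51 and Zfp36l2 at 9.95 ± 0.197 CPM per kb. Here Zfp36, which reached 30.1 CPM per kb in esculetin replicate 1, overlapped Zfp36l1, and their order was not separated by the spread.

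The summed level of the family was 50.7, 54.2 and 50.7 CPM per kb in the vehicle libraries and 68.4, 64.2 and 58.0 CPM per kb in the esculetin libraries. The esculetin libraries were all higher, with means of 51.8 ± 2.04 and 63.5 ± 5.23 CPM per kb. The share of Zfp36l2 in this sum was 13.3%, 11.2% and 13.5% with vehicle and 14.5%, 15.8% and 16.9% with esculetin, so the smallest member took a larger share in every esculetin library. Zfp36 and Zfp36l1 traded places as the largest share in a single library: in esculetin replicate 1 Zfp36 made up 44.1% and Zfp36l1 41.4%, while in the other 5 libraries Zfp36l1 made up between 52.5% and 56.9%.

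**Figure D2:**
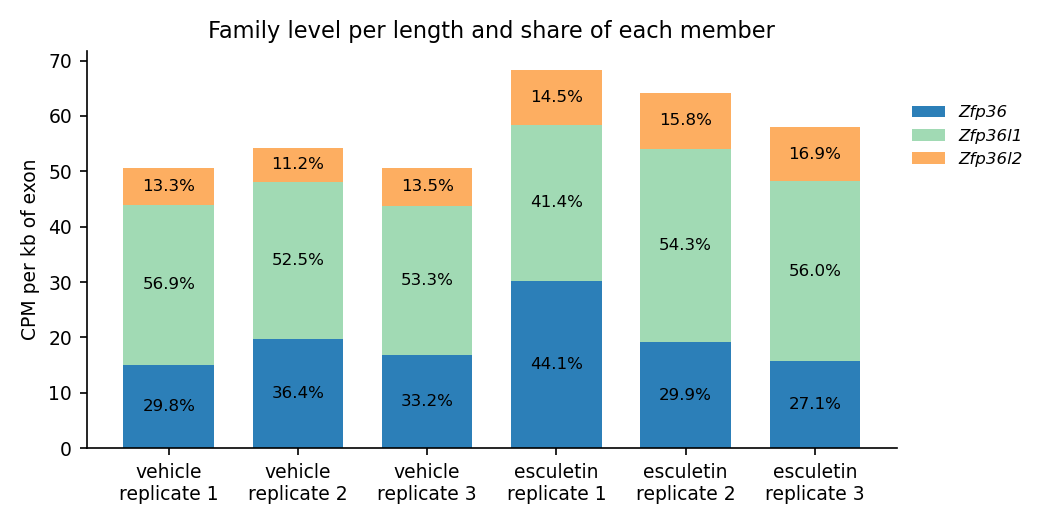
Stacked bars of CPM per kb of exon (y axis, from 0) for the 3 members in each library, with the percent of the family sum printed in each segment. The bars of the esculetin libraries are taller (58.0 to 68.4 against 50.7 to 54.2 CPM per kb), and Zfp36 is the largest segment only in esculetin replicate 1.

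The genes whose profiles were most like each member over the 6 libraries were sought among 8982 genes with a mean of at least 5 CPM, by the root mean square difference in log2 CPM after each gene was centred on its own mean. For Zfp36l2 these were Srd5a3, which encodes a polyprenol reductase of protein glycosylation, Ugt2b35, a glucuronosyltransferase, Serpina1c, an antiprotease, Gpx4, the lipid hydroperoxide peroxidase, and Irf2bpl, with differences between 0.084 and 0.0915 log2 units. The reads of Ugt2b35 and Serpina1c may be shared with close paralogs. Each of the 5 was higher in all esculetin than in all vehicle libraries, as the match to Zfp36l2 requires; Gpx4, for example, was at 118, 110 and 116 CPM with vehicle and 158, 164 and 147 CPM with esculetin. For Zfp36 the nearest were Spata2l, Ung, Golph3l, Kti12 and Etv6, at differences of 0.106 to 0.12, and all 5 had their highest value in esculetin replicate 1. For Zfp36l1 they were Higd2a, Ptov1, Fn3k, Bod1 and Ugp2, at 0.033 to 0.045. These are descriptions over 6 libraries that include the contrast the members were chosen on.

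The machinery around the family, its reported target mRNAs, and immediate early and glucocorticoid-responsive genes were then examined in 9 lists. Together these held 200 different genes, of which 187 were tested. The lists were drawn up with earlier results of these data known. Of the 187, 14 were higher and 14 lower at p under 0.05 with edgeR's quasi-likelihood test, which is 7.49% in each direction, where 6.53% of all genes tested were higher and 5.32% lower. With a fold change over 1.5 as well, 9 were higher and 7 lower (4.81% and 3.74%), against 1.37% higher and 1.76% lower among all genes. None of these was in the lists of decay factors, AU-rich element binders, or kinases, phosphatases and partners. Without esculetin replicate 1 the split was 5 higher and 10 lower. None reached an adjusted p under 0.05 (Benjamini-Hochberg), a level that 6 genes or 0.0416% of all genes reached; with DESeq2, 10 of the list genes did. The median log2 fold change was 0.01 over the lists and -0.01 over all genes. The log2 fold changes below are from this fit, and a gene is called higher or lower, or said to have passed, where its unadjusted p was under 0.05; the p-values printed are those adjusted over all genes.

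The effectors of decay are read beside the 6.53% higher and 5.32% lower among all genes. Among 21 genes of deadenylation the median log2 fold change was -0.04, with 1 higher and 1 lower at p under 0.05 (4.76% each), and 7 of the 21 had a value above 0. Cnot1, the scaffold of CCR4-NOT that the family contacts directly, was at 105, 96.5 and 106 CPM with vehicle and 83.2, 97.1 and 101 CPM with esculetin, with overlapping groups and a log2 fold change of -0.13 (SE 0.090, adjusted p = 0.614) that was -0.05 without esculetin replicate 1. Tob1, an adaptor between poly(A)-binding protein and the deadenylases, was lower with esculetin without overlap, as were 8.24% of all genes tested. It was at 204, 181 and 164 CPM against 156, 143 and 115 CPM (log2 fold change -0.41, SE 0.12, adjusted p = 0.251). Btg1 of the same adaptor family passed in the other direction (0.24, adjusted p = 0.398), with groups that overlapped, and did not pass with total counts, with the replicate block or in 4 of the 6 fits with 1 library left out. The summed level of the 21 genes was 1056 to 1089 CPM with vehicle and 976 to 1018 CPM with esculetin, ranges that did not overlap. This sum includes Tob1, which had the largest fall in mean CPM of the 21, from 183 with vehicle to 138 with esculetin. The sum is therefore not read as a fall of the list as a whole, whose median log2 fold change was -0.04. How often sums of other gene lists separate, and the sum without Tob1, were not tested.

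Of 17 decapping and 5′ decay genes, none passed the test with edgeR and all libraries. The smallest p-values were those of Lsm6 (log2 fold change 0.19, adjusted p = 0.440) and Lsm3 (0.36, adjusted p = 0.554), subunits of the ring that binds deadenylated ends, and the median was 0.08. Lsm6 passed with limma-voom, with no filter on low counts and without vehicle replicate 3 (0.28), and Lsm3 was at 0.13 without esculetin replicate 1. Among 16 tested genes of the exosome and the SKI complex, which degrade from the 3′ end, the median was -0.01, with 1 higher (6.25%) and none lower. Exosc3, a cap subunit, passed as higher (0.29, SE 0.13, adjusted p = 0.420), but it did not pass under 10 of the 13 alternatives. The nuclease Dis3 was at -0.23 (adjusted p = 0.447) and passed with total counts. Proteins that compete for or share AU-rich elements had a median of -0.03 over 20 genes, with none higher and 1 lower (5%). Tia1, which binds such elements and represses translation, passed as lower (11.4 ± 1.14 against 8.63 ± 0.555 CPM, adjusted p = 0.265), and the endonuclease relative Zc3h12c was at -0.30 (adjusted p = 0.439). Tia1 did not pass without vehicle replicate 2 (-0.31), while Zc3h12c passed without esculetin replicate 3 (-0.38) or vehicle replicate 3 (-0.36) and was at -0.19 without vehicle replicate 1.

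Among the 27 kinases, phosphatases and partners that act on the family proteins, the p38 pathway and 14-3-3 genes included, none was higher and 2 (7.41%) were lower, beside 6.53% and 5.32% of all genes, and the median was 0.05. Dusp1, the phosphatase that switches off p38 and so favours the active form of tristetraprolin, and whose mRNA is also a reported target, had the smallest p of the list. Its level was 35.9, 39.8 and 33.7 CPM with vehicle and 25.8, 26.1 and 22.5 CPM with esculetin. Each esculetin library was below each vehicle library, as for 8.24% of all genes tested, and the log2 fold change was -0.56 (SE 0.098, adjusted p = 0.132). Gigyf1, of the cap-binding partner complex GIGYF-4EHP, was lower at the edge of the threshold (-0.29, adjusted p = 0.418) with overlapping groups, and did not pass with DESeq2, with the replicate block or in 4 of the 6 fits with 1 library left out.

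Reported target mRNAs of inflammation and growth passed in both directions. Of 39 listed, 31 were tested, and 3 (9.68%) were higher and 4 (12.9%) lower at p under 0.05, beside 6.53% and 5.32% of all genes. Their log2 fold changes ran from -2.13 to 0.75, with a median of 0.00. The cytokine mRNAs that define the family's role in immune cells were close to the limit of detection here. Tnf was at 0, 0.123 and 0 CPM with vehicle and 0.124, 0 and 0.239 CPM with esculetin, and Il6 was at 0 in all vehicle libraries and at 0.187, 0 and 0.119 CPM with esculetin. These are 4 and 12 counts in all for Tnf and 0 and 10 for Il6, where 3 counts in a library give 0.0865 to 0.109 CPM. Both genes were below the filter on low counts and were not tested. Il1b, the cytokine of activated macrophages, was at 5.52, 3.499 and 1.82 CPM with vehicle and at 1.15, 0.548 and 0.776 CPM with esculetin. All esculetin libraries lay below the vehicle libraries, as for 8.24% of all genes tested. The log2 fold change was -2.13 (SE 0.42, adjusted p = 0.135). Kupffer cell and macrophage markers summed to 466 to 597 CPM with vehicle and 474 to 498 CPM with esculetin, and 1 of 12, Cd68, was lower at p under 0.05; their part in the Il1b value was not tested. Cdkn1a, the cell cycle inhibitor p21, was higher (1.56 ± 0.163 against 2.63 ± 0.445 CPM, log2 fold change 0.75, adjusted p = 0.264).

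Among 14 genes of liver metabolism listed as reported or candidate targets, 2 (14.3%) were higher and 1 (7.14%) lower, beside 6.53% and 5.32% of all genes, and the best known did not pass. Cyp7a1 was at 288, 121 and 207 CPM with vehicle and at 215, 173 and 121 CPM with esculetin. These ranges overlap, with a log2 fold change of -0.27 (SE 0.28, adjusted p = 0.755) that was 0.05 without vehicle replicate 1 and -0.54, past the test, without vehicle replicate 2. Fgf21, the fasting hepatokine whose short 3′ UTR holds the nonamer cluster shown above, was low, at 1.53, 0.552 and 0.182 CPM against 0.684, 0.922 and 1.07 CPM (0.24, SE 0.60, adjusted p = 0.914). Its exons overlap those of Fut1 on the other strand over 245 bases, and its value was 1.25, past the test, without vehicle replicate 1, 0.05 without vehicle replicate 2 and -0.21 without vehicle replicate 3. Tfrc, the transferrin receptor, overlapped between groups (0.26, adjusted p = 0.618), and was at -0.04 without esculetin replicate 2.

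The 3 that passed in this list lay further apart. Nr0b2, the bile acid-induced repressor SHP, was at 15.3, 21.2 and 11.8 CPM with vehicle and 33.1, 31.97 and 28.4 CPM with esculetin. Its groups did not overlap, with a log2 fold change of 0.95 (SE 0.18, adjusted p = 0.132). Hamp, the iron hormone hepcidin, was higher (0.79, SE 0.23, adjusted p = 0.240) and Irs1, an adaptor of the insulin receptor, was lower (-0.84, SE 0.16, adjusted p = 0.132), both without overlap. Of all genes tested, 9.2% were higher and 8.24% lower without overlap.

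**Figure D3:**
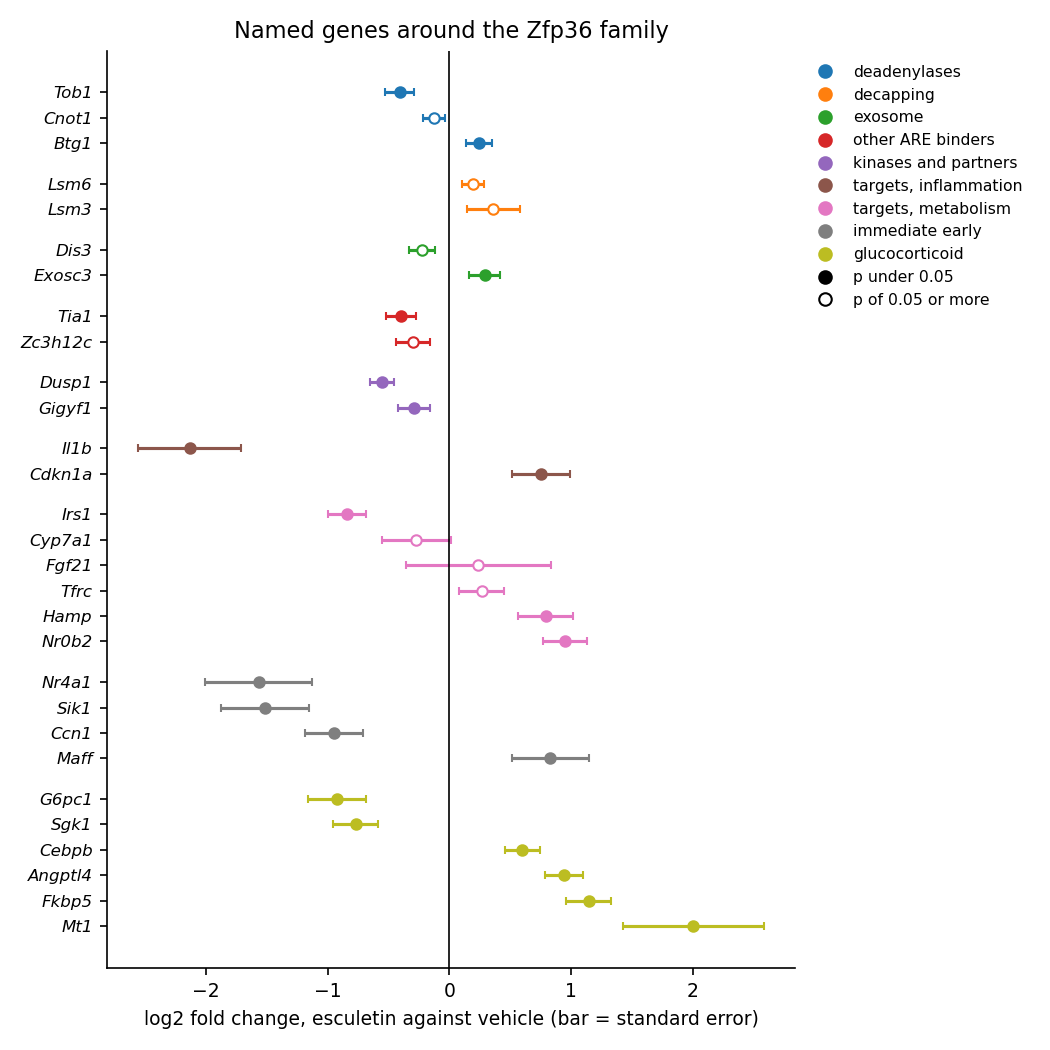
Log2 fold change of esculetin against vehicle (x axis) with its standard error (bars) for named genes tested around the family, grouped by role, filled where the unadjusted p was under 0.05. The named decay factors and AU-rich element binders lie within 0.41 of 0 while the larger values, from -2.13 for Il1b to 2.01 for Mt1, belong to target, immediate early and glucocorticoid-responsive genes.

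Zfp36 is both an immediate early gene and a glucocorticoid-responsive gene, so those classes were described beside it. Of 29 immediate early genes tested, 2 (6.90%) were higher and 5 (17.2%) lower, beside 6.53% and 5.32% of all genes, with a median log2 fold change of -0.06. The orphan receptor Nr4a1 (-1.57, SE 0.44, adjusted p = 0.230), the kinase Sik1 (-1.52, SE 0.36, adjusted p = 0.174) and the matricellular Ccn1 (-0.95, SE 0.24, adjusted p = 0.201) were lower, and the small Maf protein Maff was higher (0.83, SE 0.32, adjusted p = 0.355). Maff was at 0.54 without vehicle replicate 1 and did not pass in 4 of the 6 fits with 1 library left out. Sik1 was at 45.3, 40.5 and 16.4 CPM with vehicle and 17.1, 10.9 and 7.85 CPM with esculetin, so vehicle replicate 3 lay inside the esculetin range. Nr4a1 likewise stood at 0.948 CPM in vehicle replicate 3, against 2.96 and 3.68 CPM in the other vehicle libraries and 0.806 to 0.951 CPM with esculetin. The summed level of the listed immediate early genes was 280 CPM in esculetin replicate 1, against 216 and 239 CPM in the other esculetin libraries and 244 to 320 CPM with vehicle. Of the 29 tested, 6 had their highest value in that library, as Zfp36 did, beside 9 in vehicle replicate 2 and 2 to 5 in each of the other 4 libraries. Jun, named after its values were seen, was at 14.1 CPM in esculetin replicate 1 and at 7.43 to 8.96 CPM in the other 5.

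Glucocorticoid-responsive genes passed in both directions. Of 23 tested, 6 (26.1%) were higher and 4 (17.4%) lower at p under 0.05, beside 6.53% and 5.32% of all genes. With a fold change over 1.5 as well these were 6 and 2, beside 1.37% and 1.76% of all genes, with a median log2 fold change of 0.13. Fkbp5, the co-chaperone of the glucocorticoid receptor, was higher (1.14, SE 0.19, adjusted p = 0.114). It was at 29.6, 25.6 and 41.0 CPM with vehicle and 76.6, 54.8 and 80.9 CPM with esculetin. All its esculetin libraries lay above the vehicle libraries, as for 9.2% of all genes tested. Angptl4, an inhibitor of lipoprotein lipase that fatty acids also induce, was higher (0.94, SE 0.16, adjusted p = 0.114), as was Cebpb, a C/EBP transcription factor (0.60, SE 0.14, adjusted p = 0.175). The kinase Sgk1 (-0.77, SE 0.18, adjusted p = 0.173) and G6pc1, the catalytic subunit of glucose-6-phosphatase (-0.92, SE 0.24, adjusted p = 0.204), were lower. Mt1, a metallothionein, was at 3.06, 4.73 and 4.67 CPM with vehicle and 35.2, 5.51 and 9.44 CPM with esculetin. Its log2 fold change of 2.01 (SE 0.58, adjusted p = 0.242) was 0.85 without esculetin replicate 1, the library in which Zfp36 was also highest, and it did not pass with limma-voom. Its paralog Mt2 had 8 counts in all; both levels are low for liver, and how reads that match several loci were counted is not given in the sources used here, so the level of Mt1 is uncertain. Dusp1 sits in 4 of these lists and Cdkn1a in 2, so the lists are not independent.

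Across the transcriptome, genes were then grouped by the nonamers in their 3′ UTR, for 12465 tested genes with an annotated 3′ UTR. Of the 11350 without a nonamer, 7.10% were higher and 4.99% lower at p under 0.05, and of the 1115 with at least 1, 4.84% were higher and 7.71% lower. By number of nonamers the lower share did not keep one order. With 1 site (864 genes) 9.03% were lower, with 2 (150 genes) 4.00%, and with 3 or more (101 genes) 1.98%, and the median log2 fold change in these groups was -0.04, -0.01 and 0.07. The groups with 2 and with 3 or more rest on 6 and 2 lower genes. By number of heptamers, from 0 to 1, 2 and 3 or more, the lower share was 4.31%, 6.77%, 8.58% and 6.53%, and the higher share was 8.00%, 4.99%, 4.24% and 3.53%.

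Genes with a nonamer also have longer 3′ UTRs, with a median of 2720 bases against 1266 bases, and 3′ UTR length moved with the calls on its own. In the shortest tertile (up to 800 bases) 10.7% were higher and 3.85% lower, in the middle tertile 5.90% and 4.99%, and in the longest tertile (over 2134 bases) 4.09% and 6.86%. Genes with a nonamer were lower more often than those without in each tertile, at 6.36% against 3.78% in the shortest, 6.47% against 4.87% in the middle and 8.48% against 6.54% in the longest. They were higher less often in the shortest (8.18% against 10.8%) and middle (4.53% against 6.01%) tertiles and not in the longest (4.45% against 4.02%). Of the 110, 309 and 696 genes with a nonamer, 7, 20 and 59 were lower and 9, 14 and 31 higher. The differences between these shares were not tested. Long and short messages differ in much besides this site, and the part of 3′ UTR length, of library depth (greater in every esculetin library) and of the family itself in these shares was not tested.

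**Figure D4:**
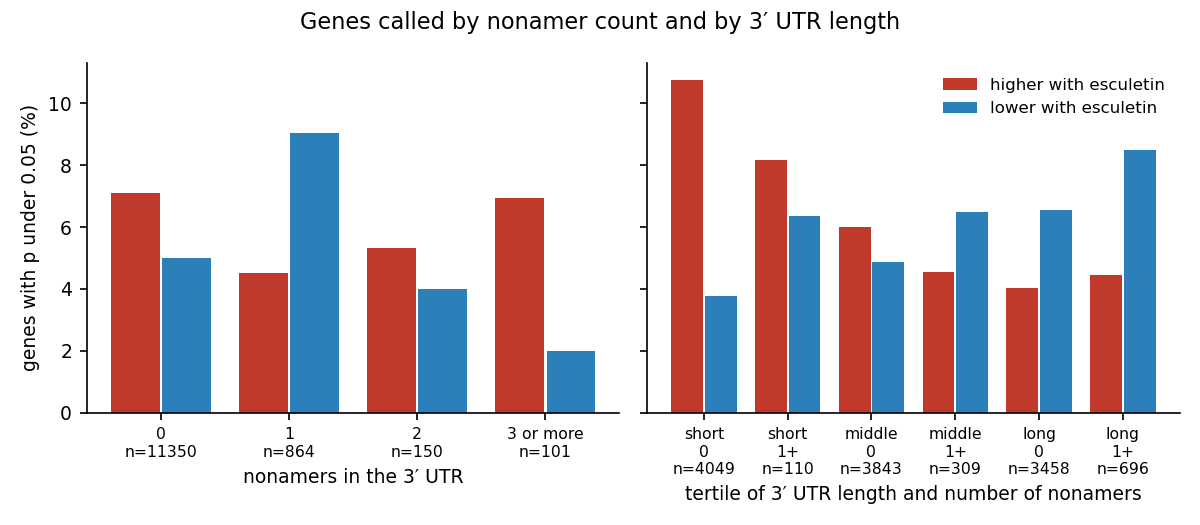
Percent of tested genes with unadjusted p under 0.05 (y axis, from 0) that were higher or lower with esculetin, by the number of nonamers in the 3′ UTR (left) and by tertile of 3′ UTR length with and without a nonamer (right), with the number of genes under each pair of bars. The lower share is largest with 1 site (9.03%) and smallest with 3 or more (1.98%), and the higher share is largest in the shortest tertile without a nonamer (10.8%).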

How the data were processed

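Liver RNA was sequenced as 150-bp paired-end reads in 3 vehicle and 3 esculetin libraries. Per the labels and methods, the authors aligned reads to GRCm39 with HISAT2 2.2.1 and counted them per gene with featureCounts (named in the submitters' processing notes), and the deposited values are whole-number counts, not normalized. The annotation release, the strand setting and how multi-mapping reads were handled are not given in the sources used here. Identifiers were matched to GENCODE, which held 54749 of 55357, and no column was left out (0). Libraries of a group differed by a chi-square of at least 26.6 per gene, so none was a copy.

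Counts were filtered with filterByExpr, normalized with TMM and tested between the groups in edgeR 4.0.16 (quasi-likelihood F test, R 4.3.3) without covariates, and p-values were adjusted by Benjamini-Hochberg over all 14433 genes tested. Each standard error is the log2 fold change over √F, and the biological coefficient of variation was 14.6%. The study named limma, p under 0.05 and a fold change over 1.5 without saying whether p was adjusted; these thresholds were kept, with the unadjusted p. Log2 CPM used a prior count of 2. CPM per kb used the union of annotated exons. Motifs were sought on the mRNA strand of the 3′ UTR of 1 representative transcript per gene. The test across genes was tested on simulated data.

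The members, the gene lists and their thresholds were chosen with earlier results of these data known. Genes named singly are the members, Cyp7a1, Fgf21, Tfrc, Tnf, Il6, Dusp1 and Cnot1, the genes of each pathway list past both thresholds (up to 6 by smallest p, otherwise the 2 with the smallest p), and the 5 nearest profiles of each member. 1 further gene of the rule is not reported here. Zfp36l3, the antisense genes, single markers, Mt2 and Jun were named beside these after their values were seen. Alternatives were DESeq2 1.42.0, limma-voom 3.58.1, RLE size factors or library totals for scaling, a minimum of 10 counts per library or no minimum, the omission of single libraries, a block on the replicate number, the longest transcript for length, and the heptamer or the longest 3′ UTR for the motif. The tertiles of 3′ UTR length were chosen after the data were seen.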

Additional observations from a re-analysis of the deposited data

How the results depend on the processing

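The log2 fold change of the 3 members stayed positive under the 13 alternatives, from 0.55 to 0.64 for Zfp36l2, 0.11 to 0.26 for Zfp36l1 and 0.02 to 0.52 for Zfp36. With total counts that of Zfp36l2 was 0.58, just under the 1.5-fold threshold. With no filter for low counts, 776 genes met the thresholds of the study in place of 452, among 24638 tested, and 477 had an adjusted p under 0.05 in place of 6; with DESeq2 these numbers were 483 and 196, and with 1 library left out 411 to 588 and 2 to 45. Total counts gave 180 higher and 283 lower genes in place of 198 and 254. With the length of the longest transcript in place of the exon union, Zfp36 took 38.05% and Zfp36l1 50.22% of the family level with vehicle. In the lists, 15 to 21 genes passed both thresholds under the alternatives, in place of 16. Of 21 named genes with p under 0.05, 17 kept it in every fit with all libraries (not Btg1, Exosc3, Gigyf1 and Mt1) and 16 in every fit with 1 library left out (not Btg1, Exosc3, Gigyf1, Maff and Tia1). With the heptamer in place of the nonamer 7.14% of genes with a site were lower, and with the longest 3′ UTR 7.73%. Cyp7a1 (-0.26), Tfrc (0.28) and Lsm6 (0.20) passed at p under 0.05 with no filter. Causes of these shifts were not tested.

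The replicate numbers did not pair the libraries, since departures from the group mean correlated between libraries of 1 number at -0.0689, -0.0108 and 0.00274. With the replicate number as a block, 399 genes passed, 15 had an adjusted p under 0.05 (5 of them in the lists), and the log2 fold change of Zfp36l2 was 0.61.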
